A study of Mus musculus with 24 samples.

Results

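Pax5-deficient fetal liver pro-B cells given Ebf1 were set against wild-type fetal liver pro-B cells. The 2 groups differ in both the Pax5 genotype and the Ebf1 vector, which this comparison cannot separate. The comparison rests on 4 samples, 2 RNA libraries of each group, out of 14 RNA libraries and 24 samples in the series, and on the 23376 autosomal genes among the 24506 genes of the deposited exon count table. The first group is Pax5-KO, transduced with the retroviral vector pMiG carrying Ebf1. The second group is wild type, transduced with pMiG alone. For reference, values are also given for Pax5-KO cells with the empty vector and for Pax5-KO cells whose pMiG carried Pax5, again 2 libraries each. Only the comparison with the empty vector keeps the genotype the same and so shows what went with the Ebf1 vector. All 4 groups are labelled as pro-B cells of C57BL6/J mice, so every group carries a retrovirus, and all were expanded on OP9 stromal cells with KIT ligand, FLT3 ligand and interleukin-7. How many fetuses were used, whether the libraries of a group came from separate cultures, which Pax5 exons the knockout removes and whether transduced cells were sorted are not given in the sources used here. The p-values therefore measure the spread between libraries of a group, which may be technical. That spread was estimated over all 14 RNA libraries, in 7 groups, and not from the 4 compared samples alone.

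EBF1 and PAX5 are transcription factors that act in sequence as a progenitor becomes a B cell. EBF1 works with E2A and FOXO1, binds the promoters of the surrogate light chain and signalling chain genes of the pre-B cell receptor, and helps to switch on Pax5. PAX5 then activates genes of B-cell receptor signalling such as Blnk and holds down genes of other blood lineages, and Pax5-deficient pro-B cells are known for keeping the ability to form other blood cells.

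The 4 libraries held 16.1 to 42.1 M (mega) exon counts, and these were 36.7% and 28.5% of the header's total for the wild-type libraries and 32.4% and 65.4% for the Ebf1 libraries. In all groups but wild type, replicate 2 had the higher share. Levels below are CPM, counts per M (mega) counts, after scaling by edgeR's trimmed mean of M values (TMM), and each pair of values gives replicate 1, then replicate 2. The 2 libraries of Pax5-KO with Ebf1 were less alike (Pearson r of log2 CPM across genes 0.895) than the 2 wild-type libraries (0.954). Both Pax5-KO groups differed from wild type in sex-linked markers: the X-inactivation transcript Xist lay at 0.466 and 29.6 CPM in wild type and at 10430 and 2595 CPM in Pax5-KO with Ebf1, and the Y-linked Kdm5d at 92 and 102 CPM against 0 in both. Genotype and these sex-linked markers cannot be told apart here, which is why the comparison was kept to autosomes. That leaves out the sex-linked genes themselves, and autosomal differences that go with these markers still cannot be told apart from genotype. In bulk RNA, fewer cells of a type and less RNA per cell cannot be told apart either. Whether the counting used strand is not given in the sources used here, so reads of overlapping genes cannot be told apart. Among the genes named below this touches Pax5 (5730488B01Rik, Mir5120), Rab11fip4 (Rab11fip4os1, Rab11fip4os2), Adam19 (Mir8100), Lgr5 (A930009A15Rik), Klhl14 (4930426D05Rik), Bach2 (Bach2os), Lyn (6330407A03Rik), Cd72 (Tesk1), Ms4a1 (4930526L06Rik), Rag2 (B230118H07Rik), Notch1 (Mir6996), Ccnd2 (9330179D12Rik), Ccnd3 (Bysl), Cox6a2 (Itgad), Rora (Gm15511), Lck (Mir8119), Bak1 (Ggnbp1), Cd74 (Mir5107), Bcl2 (Mir3473f) and Prtn3 (Bc1).

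With the vector, Ebf1 lay at or above its wild-type level and Pax5 stayed far below it. Ebf1 (chr11:44618100-45008096, mm10, as the count table gives it) stood at 966 and 1102 CPM in wild type, 315 and 241 CPM in Pax5-KO with the empty vector and 1644 and 1483 CPM in Pax5-KO with Ebf1. Both Ebf1-vector libraries were thus above both wild-type libraries, by a log2 fold change of 0.60 ± 0.19 (SE, edgeR adjusted p = 0.0498), and above the empty vector by 2.49 ± 0.20 (adjusted p = 2.94e-05). The call against wild type was lost whichever of the 4 libraries was left out, with adjusted p from 0.0501 to 0.238; the exon counts may include transcripts of the vector itself, which the table does not separate. Pax5 (chr4:44531506-44710440, mm10) stood at 412 and 333 CPM in wild type, 20.1 and 12.3 CPM with the empty vector, 9.61 and 9.07 CPM with Ebf1 and 746 and 439.6 CPM with the Pax5 vector. Its log2 fold change against wild type was -5.32 ± 0.32 (adjusted p = 5.48e-08), and adding Ebf1 gave no called change in it (-0.79 ± 0.27, adjusted p = 0.125). Myc, the growth regulator, did not differ from wild type beyond the spread: 299 and 248 CPM against 307 and 445 CPM, a log2 fold change of 0.46 with a 95% interval of -0.076 to 0.99.

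Against wild type, 1220 autosomal genes were higher and 776 lower in Pax5-KO with Ebf1, which is 8.67% and 5.51% of the 14078 tested (edgeR quasi-likelihood test, adjusted p under 0.05). The median log2 fold change of all autosomal genes tested was 0.0084, and 1978 of the 1996 called genes pointed the same way within each replicate number. Differences were often large: 442 genes were higher and 224 lower by more than 4 on the log2 scale. Of the called genes, 544 higher and 306 lower genes kept the call with each of the 4 libraries left out in turn, and such a call is said below to hold. A fit of the 2 groups alone called 470 higher and 260 lower. Among other calls against wild type, it lost those of Ebf1, Cd44, Rag2, Eomes, Pdgfrb, H2-DMa and Bcl2. Their adjusted p ran from 0.0524 (Eomes) to 0.283 (H2-DMa), so a call that held could still be lost in that fit. Set against Pax5-KO with the empty vector, Ebf1 raised 252 genes and lowered 262, or 1.79% and 1.86% of those tested, with a median of -0.0386 over all autosomal genes. That second comparison shares the Ebf1 libraries with the main one, so values for the same gene are set side by side and no agreement between the comparisons is read from them. It depended more on single libraries: the counts were 53 higher and 71 lower without empty-vector replicate 2, and 810 higher and 1357 lower without Ebf1 replicate 2. A fit of those 2 groups alone called 53 higher and 14 lower. Of the calls against the empty vector given below, it lost those of Foxo1, Myb, Pou2af1, Bach2, Cd79a, Cd79b, Rag1, Rag2, Ms4a1, Cd38, Cd72, Id2, Id3, Cplx2, Gal, Cd28, Nkg7, Ly86, Runx2, Cd74, E2f2, Ccnd3 and Bcl2, with adjusted p from 0.0509 (Cplx2) to 0.512 (Cd38). DESeq2 went the other way for Blnk, Vpreb1, Tcf7, Tcf15, Tnfrsf9, Runx1, Spib, Eomes, Lig4, Cdk6, Lck, S1pr1, Thy1, Cd3g, Impdh1 and Polr1a, among others. It called these against the empty vector and the edgeR test did not. The call of Gzma against the empty vector was lost with DESeq2 (adjusted p = 0.0919).

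The 10 genes furthest below wild type, among those whose call held and that had at least 20 CPM in both wild-type libraries, were at 0 or 1 count in the Ebf1 libraries together. Adam19, a membrane metalloprotease, lay at 168 and 163 CPM in wild type and 0 in both Ebf1 libraries, which is at least 3117-fold lower when 3 counts over the group are taken as the floor. Alpl, alkaline phosphatase, went from 169.6 and 135 CPM to 0 (at least 2880-fold), Cd55, a regulator of complement, from 60.5 and 75.4 CPM to 0 (at least 1272-fold) and Lgr5, an R-spondin receptor, from 82.3 and 51.8 CPM to 0 (at least 1277-fold). Enpep, the aminopeptidase known on early B cells as BP-1, stood at 279 and 241 CPM against 0 and 0.0251 CPM, a ratio of 14730 with a 95% counting interval of 2643 to 581900. Siglecg, an inhibitory lectin of B cells, stood at 152 and 155 CPM against 0 and 0.0251 CPM, a ratio of 8648 with a 95% counting interval of 1552 to 341600. Intervals of ratios cover counting error only. Tmc7, Bcar3, Sema5a and Klhl14 were at 0 in both Ebf1 libraries and between 27.5 CPM (Klhl14) and 46.5 CPM (Tmc7) in wild type. With the empty vector the 10 genes lay between 0 and 6.55 CPM (Siglecg), and with the Pax5 vector Klhl14 lay at 61.1 and 53.9 CPM, Enpep at 64.4 and 66 CPM and Alpl at 32.8 and 44.5 CPM.

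Among the 10 genes furthest above wild type by the same rule, with at least 20 CPM in both Ebf1 libraries, several were also called higher than with the empty vector. The rule took them for being high in these same Ebf1 libraries, so their values against the empty vector are no separate support. Ret, a receptor tyrosine kinase, lay at 0 and 0.0572 CPM in wild type, 0.142 and 0.117 CPM with the empty vector and 61.5 and 151 CPM with Ebf1. Its log2 fold change against the empty vector was 9.65 ± 1.17 (adjusted p = 0.000794), and its ratio to wild type was 4575 with a 95% counting interval of 821 to 180700. Bean1 was at 0 in wild type and with the empty vector and at 36.6 and 20.5 CPM with Ebf1, at least 309.9-fold above wild type; DESeq2 called it neither against wild type (adjusted p = 0.112) nor against the empty vector (0.128). Rab11fip4, an adaptor of vesicle transport, was at 0 in wild type, at 1.33 and 0.263 CPM with the empty vector and at 49.9 and 26.6 CPM with Ebf1 (against the empty vector 5.62 ± 0.79, adjusted p = 0.00164). Gzma, a protease of killer lymphocytes, stood at 0 and 0.401 CPM in wild type, 10.6 and 6.46 CPM with the empty vector and 256 and 127 CPM with Ebf1. Its rise over the empty vector (4.49 ± 1.12, adjusted p = 0.0407) was lost without empty-vector replicate 1 (adjusted p = 0.136), empty-vector replicate 2 (0.301) or Ebf1 replicate 1 (0.0706). Gal, which encodes the neuropeptide galanin, was at 0 in wild type and at 24.9 and 34.3 CPM with Ebf1, and its rise over the empty vector (adjusted p = 0.0435) was lost without empty-vector replicate 1 (adjusted p = 0.17) or 2 (0.114). Tnfrsf9, a costimulatory receptor, was already at 50.5 and 48.6 CPM with the empty vector and lay at 95.8 and 96.3 CPM with Ebf1, with a ratio to wild type of 3536 with a 95% counting interval of 634 to 139700. Mpo, the granule enzyme myeloperoxidase, lay at 0.0518 and 0.172 CPM in wild type, 119 and 106 CPM with the empty vector and 81.2 and 126 CPM with Ebf1. Neither of these had a called change against the empty vector. Tcf15, Chrna4 and Gpnmb also belonged to the 10 and had no called change against the empty vector.

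The pre-B cell receptor divided into chains that were called lower than wild type and chains that were not. The surrogate light chain is made by Igll1 (lambda5) and Vpreb1 or Vpreb2, and the signal is carried by Cd79a and Cd79b. Of 6 chain genes tested, 3 were lower than wild type, beside 5.51% of all autosomal genes. Their median log2 fold change over the 6 was -1.13, against 0.0084 for all autosomal genes. The stretches upstream of 3 of these genes are shown because an EBF1 peak of the study's pre-B line 230-238 has its centre in each, and because Cd79a and the surrogate light chain genes went different ways. They are the 250 bases before the RefSeq start on GRCm38.p6, 5′ to 3′ on the gene's strand, at chr16:16863986-16864235 (minus) for Igll1, chr16:16869256-16869505 (minus) for Vpreb1 and chr7:24897247-24897496 (plus) for Cd79a. Capitals mark the match nearest the peak centre to the palindromic EBF1 core TCCCNNGGGA among those with the fewest mismatches.

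Igll1: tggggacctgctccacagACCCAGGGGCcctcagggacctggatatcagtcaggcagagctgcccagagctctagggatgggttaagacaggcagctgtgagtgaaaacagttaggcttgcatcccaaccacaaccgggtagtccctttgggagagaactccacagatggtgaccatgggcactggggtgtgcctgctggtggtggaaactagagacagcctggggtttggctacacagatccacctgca

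Vpreb1: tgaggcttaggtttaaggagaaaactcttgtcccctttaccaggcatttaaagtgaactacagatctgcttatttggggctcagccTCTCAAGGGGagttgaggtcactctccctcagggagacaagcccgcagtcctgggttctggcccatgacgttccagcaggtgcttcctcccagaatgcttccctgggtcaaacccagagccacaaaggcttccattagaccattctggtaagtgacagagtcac

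Cd79a: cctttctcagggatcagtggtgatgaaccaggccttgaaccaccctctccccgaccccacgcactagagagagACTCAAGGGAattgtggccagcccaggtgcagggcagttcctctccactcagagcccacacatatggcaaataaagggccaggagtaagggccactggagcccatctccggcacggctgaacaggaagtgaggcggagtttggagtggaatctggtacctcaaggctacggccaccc

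Each capitalised stretch had 2 mismatches to the core and began 232, 164 and 177 bases before the start, at 8, 4 and 4 bases from the peak centre. The stretches were picked as nearest the centre among 5, 5 and 2 equally good matches, so short distances were partly built into the choice. Each peak also ran past the 250 bases searched, at Igll1 from position 16864235 to 16864380. The authors' peak scores were 330 at Igll1, 85.0 at Vpreb1 and 134 at Cd79a, so the promoter of the gene that fell held a peak as well. A match with up to 2 mismatches is common and describes letters only: 78.5% of the 10019 promoters matched to autosomal tested genes held 1 in these 250 bases, 93.4% of those with a peak centre inside and 77.6% of those without. The unbroken core occurred in 5.42% of promoters with a peak centre inside and 0.603% of those without.

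Igll1 stood at 1047 and 822 CPM in wild type, 418 and 536 CPM with the empty vector and 1074 and 802 CPM with Ebf1. Its Ebf1 and wild-type libraries overlapped, with a log2 fold change of 0.0059 and a 95% interval of -1.08 to 1.09, so a change of up to about 1 log2 unit either way was not detectable. Vpreb1 went from 53.5 and 107 CPM with the empty vector to 225 and 189.7 CPM with Ebf1, beside 332 and 229 CPM in wild type. Both Ebf1 libraries of Vpreb1 lay below both wild-type libraries, with a log2 fold change of -0.43 and a 95% interval of -1.34 to 0.47. Neither gene's difference from the empty vector passed the test (adjusted p = 0.299 and 0.0942), although both Ebf1 libraries were above both empty-vector libraries for each gene. Vpreb1 would have been called without Ebf1 replicate 2 (adjusted p = 0.0427) or with DESeq2 (0.0265), and both genes with no filter on low counts (0.00158 for Igll1 and 1.74e-05 for Vpreb1). Vpreb2, a near-identical copy of Vpreb1 whose reads may be split between them, passed the test against neither reference.

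Cd79a and Cd79b, partners in the same heterodimer, moved in opposite directions when Ebf1 was added. Cd79a went from 79 and 52.4 CPM with the empty vector to 31.8 and 25.4 CPM with Ebf1, against 611 and 427 CPM in wild type and 519 and 592 CPM with the Pax5 vector. Its log2 fold change was -4.18 ± 0.28 against wild type (adjusted p = 1.49e-07) and -1.20 ± 0.25 against the empty vector (adjusted p = 0.0156; 0.117 without empty-vector replicate 1). Cd79b went from 63.5 and 80.5 CPM to 168 and 121 CPM, against 571 and 456 CPM in wild type. It was thus higher than with the empty vector (1.00 ± 0.22, adjusted p = 0.0191) and still lower than wild type (-1.83 ± 0.22, adjusted p = 4.55e-05). The rise of Cd79b was lost without empty-vector replicate 1 (0.13) or 2 (0.0757) or without Ebf1 replicate 1 (0.0999). Vpreb3, an assembly factor of the receptor, was at 369 and 326 CPM in wild type and at 0.24 and 3.47 CPM with Ebf1 (-7.41 ± 0.74, adjusted p = 1.17e-05).

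**Figure D1:**
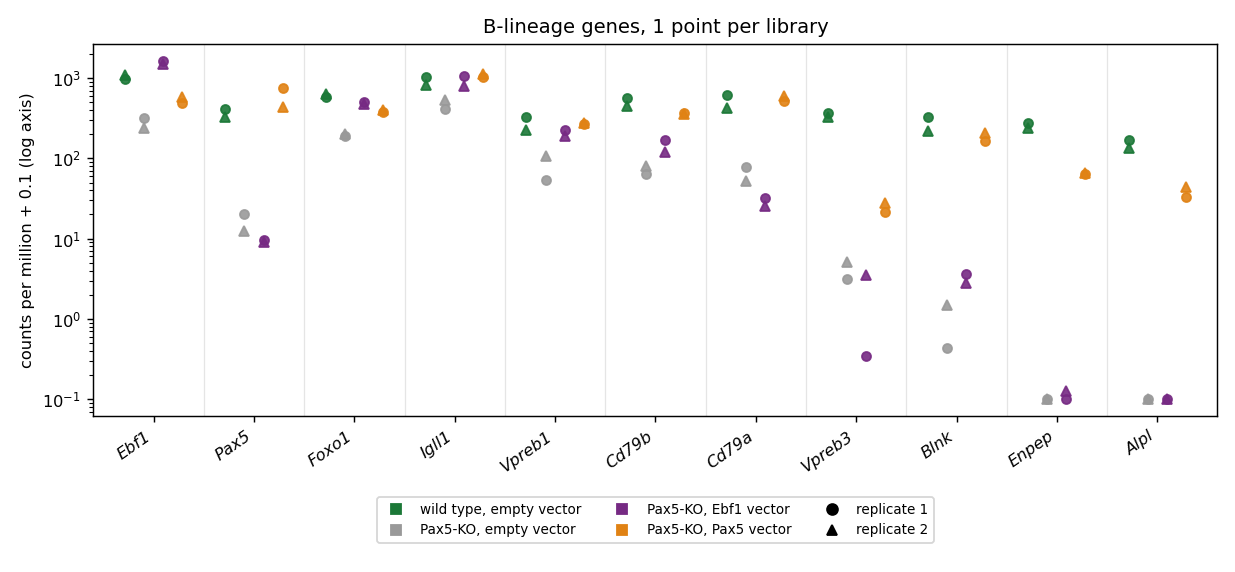
CPM plus 0.1 (log axis) of B-lineage genes in each library of the 4 groups, 1 point per library, with circles for replicate 1 and triangles for replicate 2. Igll1 overlaps wild type in the Ebf1 libraries and Vpreb1 lies somewhat below it, whereas Blnk (3.48 and 2.66 CPM) and Vpreb3 lie far below wild type.

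Of 22 B-lineage transcription factors tested, 11 were lower than wild type, against 5.51% of all autosomal genes. Of the 11, 9 held, the knocked-out gene Pax5 among them. Another 10 were not called, and the 1 that was higher was Ebf1 itself, the gene supplied. The list's median was -0.94. Foxo1, a partner of EBF1 that also drives the Rag genes, stood at 189.6 and 204 CPM with the empty vector, 498 and 471 CPM with Ebf1 and 588 and 638 CPM in wild type. Ebf1 raised it over the empty vector by 1.30 ± 0.17 (log2, adjusted p = 0.000963; 0.0726 in a fit of those 2 groups alone), and its difference from wild type did not pass the test (-0.34, 95% interval -0.70 to 0.018). Myb, which sustains early B progenitors, showed the same order, from 349 and 388 CPM with the empty vector to 605 and 807 CPM with Ebf1 beside 815 and 694 CPM in wild type. Its rise (adjusted p = 0.0147) was lost without empty-vector replicate 1 (0.0976) or 2 (0.0948).

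Lef1, Bach2 and Pou2af1 rose with Ebf1 and stayed below wild type. Lef1, a Wnt-pathway factor of pro-B cells, rose from 43.6 and 40 CPM to 149.6 and 207 CPM, by 2.09 ± 0.30 (adjusted p = 0.0016), with 382 and 404 CPM in wild type. Its deficit against wild type (-1.14 ± 0.29, adjusted p = 0.0166) was lost without wild-type replicate 1 (0.0536) or 2 (0.0786) or Ebf1 replicate 1 (0.0818). Bach2, a repressor that guards the pre-B checkpoint, rose from 120.4 and 109 CPM to 219 and 309.6 CPM and lay at 995 and 1268 CPM in wild type (-2.10 ± 0.21, adjusted p = 8.81e-06). Pou2af1, the coactivator OCA-B, rose from 131 and 83.2 CPM to 205 and 298 CPM and lay at 2980 and 2803 CPM in wild type (-3.52 ± 0.28, adjusted p = 7.88e-07). Both rises, of Bach2 (adjusted p = 0.00531) and Pou2af1 (0.0163), were lost without empty-vector replicate 2 (0.0835 and 0.201).

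A further group of factors was below wild type with no called response to Ebf1. Ikzf3, the zinc-finger factor Aiolos, stood at 672 and 773 CPM in wild type, 52.2 and 42.5 CPM with the empty vector and 64.4 and 89.3 CPM with Ebf1 (-3.23 ± 0.40 against wild type, adjusted p = 5.57e-05). Irf4, which promotes the pre-B transition, stood at 929 and 731, 110.2 and 113 and 64.1 and 160.2 CPM in the same order (-2.89 ± 0.34, adjusted p = 3.61e-05). Its 2 Ebf1 libraries lay on either side of the empty-vector pair, and without Ebf1 replicate 2 it was called lower than the empty vector (-0.81, adjusted p = 0.0496). Tcf3, which encodes E2A, stood at 464 and 382, 127 and 179 and 146 and 188 CPM (-1.34 ± 0.28, adjusted p = 0.00478), and Spib, an ETS factor, at 826 and 1227, 201 and 219 and 350.1 and 337 CPM (-1.58 ± 0.23, adjusted p = 0.000256). Ikzf1, Tcf12 and Runx1 did not pass the test in either comparison.

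Id3 and Id2, inhibitors of DNA binding that block E proteins, fell with Ebf1. Id3 stood at 12.8 and 16.5 CPM with the empty vector and 3.3 and 1.96 CPM with Ebf1 (-2.50 ± 0.40, adjusted p = 0.0034; 0.294 in a fit of those 2 groups alone), with 61.1 and 47.5 CPM in wild type and 61 and 44.8 CPM with the Pax5 vector. Id2 went from 23.2 and 34.3 CPM to 1.74 and 5.38 CPM (-2.99 ± 0.54, adjusted p = 0.00753; 0.0705 without empty-vector replicate 2 and 0.151 in a fit of those 2 groups alone) and lay at 1.76 and 4 CPM in wild type. The 2 genes thus differed from wild type in different ways: Id3 was lower (-4.38 ± 0.43, adjusted p = 6.83e-06), and Id2 did not pass the test (0.33, 95% interval -0.79 to 1.45).

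Receptor signalling and surface genes held more lower than higher calls, beside 8.67% higher and 5.51% lower of all autosomal genes. In signalling, 9 of 18 genes tested were lower than wild type, 3 higher and 6 not called (median -0.81), of which 4 lower and 1 higher held. Among B-cell surface antigens, 10 of 19 were lower (median -2.44), and 9 of the 10 held. Blnk, the adaptor downstream of the receptor, stood at 329.5 and 221 CPM in wild type, 0.332 and 1.4 CPM with the empty vector, 3.48 and 2.66 CPM with Ebf1 and 164 and 207 CPM with the Pax5 vector. The wild-type and Ebf1 libraries were far apart (-6.50 ± 0.61, adjusted p = 4.05e-06), and Ebf1 gave no called change (1.70 ± 0.59, adjusted p = 0.128). Both Ebf1 libraries were nevertheless above both empty-vector libraries, and Blnk was called higher with DESeq2 (0.0171) and with no filter on low counts (3.5e-05). Of the B-lineage genes that mark the labelled cell type, Igll1 and Vpreb1 were thus not called different from wild type in the Ebf1 libraries, whereas Blnk and Vpreb3 lay far below it.

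The kinase genes Syk and Lyn were below wild type. Syk, which couples the receptor to BLNK, stood at 660.1 and 653 CPM in wild type and 219 and 359 CPM with Ebf1 (-1.18 ± 0.22, adjusted p = 0.0023), and Lyn, which phosphorylates the CD79 chains, at 269 and 308 and 93.3 and 111 CPM (-1.50 ± 0.22, adjusted p = 0.000271). Rasgrp3, a Ras activator, was the gene of this list whose higher call held. It stood at 28.6 and 32.5 CPM in wild type, 379.5 and 476 CPM with the empty vector and 102 and 104 CPM with Ebf1, so Ebf1 lowered it (-2.05 ± 0.30, adjusted p = 0.00177) without bringing it to the wild-type level (1.76 ± 0.30, adjusted p = 0.00116). Plcg2, Inpp5d and Dapp1 did not pass the test in either comparison.

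Surface antigens differed in how they answered to Ebf1. Ms4a1, which encodes CD20, was the member that Ebf1 raised: it stood at 0.19 and 0 CPM with the empty vector, 10.3 and 8.94 CPM with Ebf1 and 8.18 and 17.1 CPM in wild type (6.82 ± 1.06 against the empty vector, adjusted p = 0.00318; 0.151 in a fit of those 2 groups alone). Cd24a, the heat-stable antigen, stood at 2489 and 2261 CPM in wild type and 601 and 769 CPM with Ebf1 (-1.79 ± 0.20, adjusted p = 1.94e-05), with no called change from 506 and 537 CPM with the empty vector. Tnfrsf13c, the receptor of the survival factor BAFF, stood at 256 and 235 CPM in wild type, 254 and 349 CPM with the empty vector and 83.9 and 74.4 CPM with Ebf1. It was lower than wild type (-1.63 ± 0.26, adjusted p = 0.000562) and than the empty vector (-1.93 ± 0.26, adjusted p = 0.00121). Cd38, an ectoenzyme, stood at 126 and 125 CPM in wild type, 2.56 and 6.99 CPM with the empty vector and 0 and 0.829 CPM with Ebf1, and Cd72, an inhibitory coreceptor, at 73 and 62, 19 and 18.5 and 4.03 and 8.44 CPM. Both were lower than both references, and without empty-vector replicate 2 their differences from the empty vector were lost (adjusted p = 0.248 for Cd38 and 0.075 for Cd72). Ly6d, an early B marker, fell from 299 and 409 CPM to 70.5 and 46.2 CPM (-2.60 ± 0.38, adjusted p = 0.00164) and did not pass the test against wild type (125 and 83.4 CPM, adjusted p = 0.136). For Cd22, an inhibitory coreceptor at 278 and 305 CPM in wild type, the Ebf1 libraries disagreed (19.4 and 1.56 CPM): against the empty vector it was called lower without replicate 1 (-2.42, adjusted p = 0.00291) and higher without replicate 2 (1.21, adjusted p = 0.0231).

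Rag1 and Rag2, the recombinase genes that build the receptor, were raised part of the way. The list's counts stand beside 8.67% higher and 5.51% lower of all autosomal genes against wild type. Of 10 V(D)J recombination genes tested, 3 were lower than wild type, all of which held, and 1 was higher (median -1.03). Rag1, a recombinase subunit, stood at 213 and 162 CPM with the empty vector, 379 and 472 CPM with Ebf1 and 854 and 1184 CPM in wild type. It rose over the empty vector by 1.18 ± 0.21 (log2, adjusted p = 0.00709) and was below wild type, with a log2 fold change of -1.26 ± 0.21 (adjusted p = 0.0009). Rag2, its partner, rose from 43.1 and 52.4 to 81.6 and 114 CPM, with 205 and 192 CPM in wild type. The rises were lost for Rag1 without empty-vector replicate 2 (adjusted p = 0.121) and for Rag2 without empty-vector replicate 1 (0.11) or 2 (0.0659). Lig4, the ligase of end joining, was lower than wild type at 9.49 and 19.7 against 61.6 and 58.5 CPM (-2.04 ± 0.45, adjusted p = 0.00643).

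Reported targets of the 2 factors, listed from general knowledge but with earlier results of these data known, were counted in the same way. The counts are therefore no independent support for those reports. Of all autosomal genes, 8.67% were higher and 5.51% lower than wild type. Against the empty vector the shares were 1.79% and 1.86%. Of 18 genes reported as activated by EBF1, 11 were lower than wild type (median -2.49), 1 of them the knocked-out gene Pax5 itself. Against the empty vector 5 were higher and 1 lower (median 0.55). Of 18 reported as activated by PAX5, 17 were lower than wild type (median -3.40), 15 of which held, while 3 were higher and 6 lower than with the empty vector (median -0.04). Some genes stand in both lists, Cd79a among them. Cplx2, a complexin of vesicle release that stands in the PAX5 list, rose from 6.88 and 8.13 CPM to 58.1 and 41.6 CPM with Ebf1 (2.73 ± 0.28, adjusted p = 0.000229; 0.0509 in a fit of those 2 groups alone) and stood at 586 and 557 CPM in wild type (-3.52 ± 0.28, adjusted p = 1.88e-06). Of 18 reported as repressed by PAX5, 13 were higher than wild type and 1, the adhesion receptor gene Cd44, lower (median 4.26). With Ebf1, 4 of these 18 were lower than with the empty vector.

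**Figure D2:**
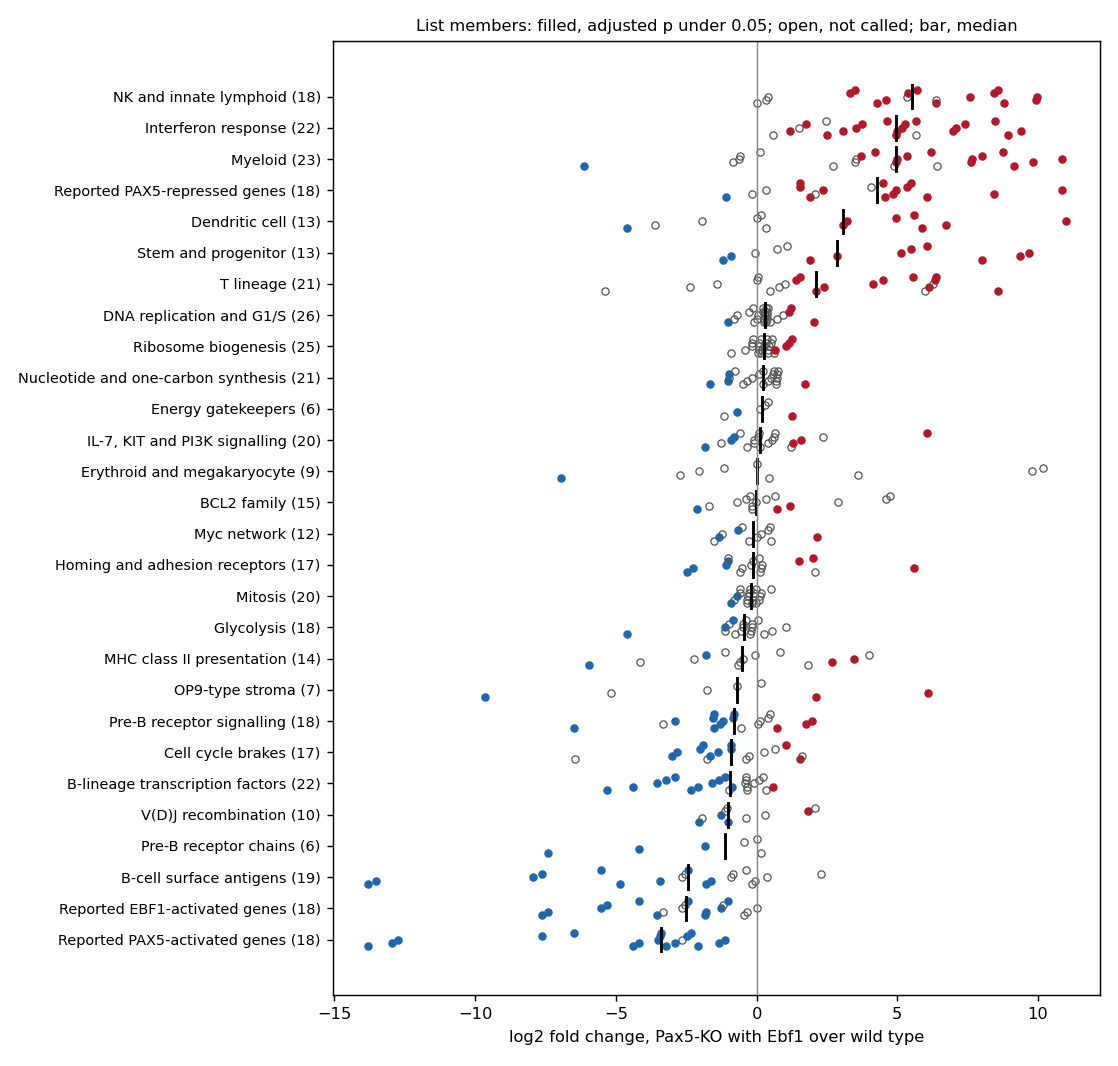
Log2 fold change of Pax5-KO with Ebf1 over wild type (x axis) for each tested member of the autosomal gene lists, with the number tested in brackets, filled points for called genes, open points for uncalled genes and a bar for the list's median. The T lineage, stem cell, dendritic cell, myeloid, interferon and NK lists have medians from 2.12 to 5.53, the erythroid list has 0, and the reported PAX5-activated list is lowest at -3.40, against 0.0084 for all autosomal genes. Points of genes at 0 in a group are fitted values and no bounds.

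Among genes that PAX5 holds down, some were called lower with Ebf1 than with the empty vector and others were not called. Il2rb, a chain of the interleukin-2 and interleukin-15 receptors, stood at 0.104 and 0.172 CPM in wild type, 181 and 213 CPM with the empty vector and 42.4 and 55 CPM with Ebf1. It fell with Ebf1 by 2.02 ± 0.27 on the log2 scale (adjusted p = 0.00101) and was still above wild type by 8.43 ± 0.43 (adjusted p = 1.3e-08). With the Pax5 vector it lay at 45.8 and 50.1 CPM. Ly6a, the stem-cell antigen Sca-1, fell from 654 and 660 to 169.6 and 191 CPM, with 6.27 and 1.77 CPM in wild type and 262 and 339.9 CPM with the Pax5 vector (against the empty vector adjusted p = 0.00954; 0.0659 without empty-vector replicate 2). Cd28, a T-cell costimulator, fell from 52.9 and 44 to 17.8 and 29.4 CPM (adjusted p = 0.0398), a call lost without empty-vector replicate 1 (0.164) or 2 (0.121) or Ebf1 replicate 1 (0.164).

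Flt3 and Notch1 showed no called response to Ebf1. Flt3, the receptor of FLT3 ligand, which was in the medium, stood at 2.38 and 3.43 CPM in wild type, 238 and 240 CPM with the empty vector, 195 and 189 CPM with Ebf1 and 22.4 and 20.5 CPM with the Pax5 vector. Its excess over wild type was 6.05 ± 0.25 (adjusted p = 2.62e-09), and its difference from the empty vector was -0.31 with a 95% interval of -0.74 to 0.11. Notch1, the receptor that commits progenitors to the T lineage, stood at 182 and 234, 811 and 775, 559 and 665 and 199.7 and 175 CPM in the same order (1.56 ± 0.19 against wild type, adjusted p = 6.33e-05). Both Ebf1 libraries were thus above all wild-type and Pax5-vector libraries for both genes. They also lay below both empty-vector libraries for both genes, so a small fall may have gone uncalled.

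Genes of other blood lineages were above wild type in number, while several defining markers of the same lineages were at 0. The counts of each lineage and stroma list below stand beside 8.67% higher and 5.51% lower of all autosomal genes. Of 21 T-lineage genes tested, 11 were higher than wild type, 8 of which held (median 2.12), with a summed level over the whole list of 610 and 684 CPM in wild type and 1326 and 1442 CPM with Ebf1. Cd3e, Cd8a, Cd8b1 and Bcl11b were at 0 in wild type and with Ebf1, and Cd3d was at 0 with Ebf1. Cd3g, Cd4 and Ptcra, at 0 in wild type, had counts with Ebf1: Cd3g stood at 0.0601 and 0.678 CPM and was called higher (adjusted p = 0.0491), a call lost without either wild-type library (0.177 and 0.202) or Ebf1 replicate 2 (0.291). Cd4 stood at 0 and 0.678 CPM and Ptcra at 0 and 0.552 CPM, and neither was called (adjusted p = 0.103 and 0.116). Cd7, a surface antigen of early T and NK cells, stood at 0 and 0.114 CPM in wild type, 124 and 141 CPM with the empty vector and 16.3 and 29.2 CPM with Ebf1 (-2.54 ± 0.39 against the empty vector, adjusted p = 0.00242). Tcf7, the T-lineage factor TCF1, stood at 1.92 and 0.458, 184 and 228 and 86.1 and 116 CPM (6.38 ± 0.48 against wild type, adjusted p = 5.37e-07), with no called change from the empty vector (adjusted p = 0.134). Lck, the kinase of the T-cell receptor, stood at 7.3 and 6.52 CPM in wild type and 40.7 and 32.7 CPM with Ebf1 (2.41 ± 0.26, adjusted p = 1.36e-05).

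Of 18 NK and innate lymphoid genes, 13 were higher than wild type, 10 of which held (median 5.53, or 4.77 with genes at 0 in a group set to their bounds). The list summed to 7.51 and 8.58 CPM in wild type, 700 and 722 CPM with the empty vector and 477 and 328 CPM with Ebf1, and Prf1, perforin, was at 0 in wild type and with Ebf1. Eomes, a T-box factor of NK cells, was at 0 in wild type, 24.4 and 29.5 CPM with the empty vector and 1.44 and 7.99 CPM with Ebf1 (at least 74.3-fold above wild type). Rora, a nuclear receptor of innate lymphoid cells, stood at 0.777 and 0.229, 72.2 and 72.1 and 27.8 and 25.4 CPM (5.69 ± 0.58 against wild type, adjusted p = 9.05e-06). Nkg7, a granule protein, fell from 15.9 and 15.2 CPM with the empty vector to 0 and 0.527 CPM with Ebf1 (-5.57 ± 0.87, adjusted p = 0.00279; 0.146 in a fit of those 2 groups alone) and lay at 0.466 and 0 CPM in wild type. With Gzma in the same list above the empty vector, its members did not go 1 way.

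Of 23 myeloid genes, 13 were higher and 1, Ly86, lower than wild type (median 4.94, or 4.65 at bounds), with 10 of the 13 holding. The list summed to 247 and 238 CPM in wild type and 680 and 646 CPM with Ebf1, and Cebpe was at 0 in wild type and with Ebf1. Lyz2, lysozyme, stood at 0.725 and 0.401 CPM in wild type, 162 and 159 CPM with the empty vector and 154 and 76.1 CPM with Ebf1 (7.65 ± 0.54 against wild type, adjusted p = 2.93e-07). Ly86, the MD-1 partner of the CD180 receptor, was at 0 in both Ebf1 libraries against 1.47 and 2.92 CPM with the empty vector (adjusted p = 0.00166), and its deficit against wild type was lost without wild-type replicate 2 (adjusted p = 0.363) or Ebf1 replicate 2 (0.0812).

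Dendritic cell and stem cell genes followed. Of 13 dendritic cell genes, 7 were higher and 1 lower than wild type (median 3.07), and its members together gave 32.3 and 37.9 CPM in wild type and 457 and 420 CPM with Ebf1, with Zbtb46 at 0 in both Ebf1 libraries and Clec9a, Cd209a and Klk1 at 0 there and in wild type. Ccr9, a gut-homing and thymus-homing receptor, stood at 2.23 and 1.77 CPM in wild type, 543 and 686 CPM with the empty vector and 122 and 70 CPM with Ebf1 (-2.68 ± 0.31 against the empty vector, adjusted p = 0.000326). Runx2, a factor of bone and of plasmacytoid dendritic cells, stood at 2.12 and 2.12, 238 and 242 and 119 and 128 CPM (5.86 ± 0.24 against wild type, adjusted p = 2.62e-09). Its fall against the empty vector (adjusted p = 0.0119) was lost without empty-vector replicate 2 (0.102) or Ebf1 replicate 1 (0.0505). Siglech, a marker of plasmacytoid dendritic cells, had counts in only 1 Ebf1 library (7.09 and 0 CPM), and without that library its difference from wild type reversed (-2.77, adjusted p = 0.429). Of 13 stem and progenitor genes, 8 were higher and 2 lower (median 2.84), while the list's sum did not separate the groups (1609 and 1606 CPM in wild type, 1535 and 2062 CPM with Ebf1). Meis1, a homeobox gene of progenitors, stood at 7.04 and 4.12 CPM in wild type and 39.9 and 40.5 CPM with Ebf1, and its partner Hoxa9 at 0.88 and 0.114 and 20.2 and 16.2 CPM, with no called change from the empty vector for either.

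Of 9 erythroid and megakaryocyte genes tested 1 was called, Hbb-bt, a globin gene, which was lower than wild type (adjusted p = 0.0239) and was lost without wild-type replicate 1 (0.136) or Ebf1 replicate 2 (0.0819). Epor, the erythropoietin receptor, and Pf4, a platelet chemokine, were at 0 in wild type and high in 1 Ebf1 library each: Epor stood at 11 and 0 CPM (at least 39.7-fold over the group) and Pf4 at 0.3 and 8.04 CPM (at least 70.6-fold). They were not called (adjusted p = 0.0708 and 0.0727) except with DESeq2 (0.00861 and 0.0101), with no filter (0.00155 and 0.00315) or without the Ebf1 library that was low (0.00736 and 0.0326). Of 7 genes of OP9-type stroma 2 were higher and 1 lower, and all 3 calls held. Pdgfrb, a PDGF receptor, stood at 0 and 0.114 CPM in wild type, 6.21 and 9.3 CPM with the empty vector and 1.44 and 6.46 CPM with Ebf1 (adjusted p = 0.00069), a ratio to wild type of 91.5 with a 95% counting interval of 25.1 to 759.5. The other higher gene was Thy1, which is also in the T-lineage list. The lower gene was Fn1, fibronectin, at 0 with Ebf1. Col1a2, Col6a1 and Cxcl12 were also at 0 in both Ebf1 libraries, and Pdgfra, Postn, Dcn and Lum were at 0 there and in wild type. Whether the raised genes come from all cells or from a fraction of cells of another type was not tested.

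**Figure D3:**
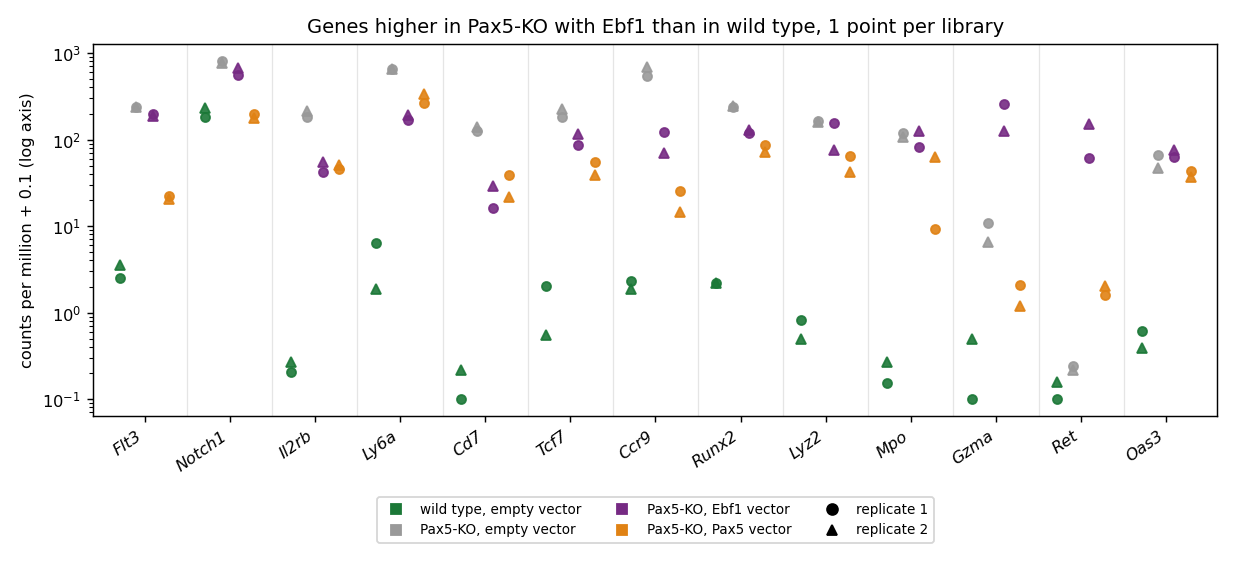
CPM plus 0.1 (log axis) of genes higher in Pax5-KO with Ebf1 than in wild type, 1 point per library of the 4 groups. Flt3, Notch1, Lyz2 and Mpo lie near the empty-vector height with Ebf1, Il2rb, Ly6a, Cd7 and Ccr9 lie below it, and Ret and Gzma lie above it.

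Among the lists of autosomal genes, the interferon response had the largest share of higher genes: 18 of 22 tested were higher than wild type, and all 18 held (median 4.96, or 4.71 at bounds). Of all autosomal genes, 8.67% were higher than wild type, and 1.79% were higher and 1.86% lower than with the empty vector. The list summed to 213 and 240 CPM in wild type, 1522 and 1593 CPM with the empty vector, 1483 and 1635 CPM with Ebf1 and 1262 and 1100 CPM with the Pax5 vector. Rtp4, an interferon-induced chaperone, stood at 0.932 and 0.915 CPM in wild type and 117 and 114 CPM with Ebf1 (6.96 ± 0.26, adjusted p = 1.12e-09). Against the empty vector 1 gene, Usp18, was higher and 1, Oasl2, was lower, and neither call was kept with each library left out in turn. All Pax5-KO groups thus lay above wild type, the Pax5 vector included, and members of the Oas and Ifit families may share reads.

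**Figure D4:**
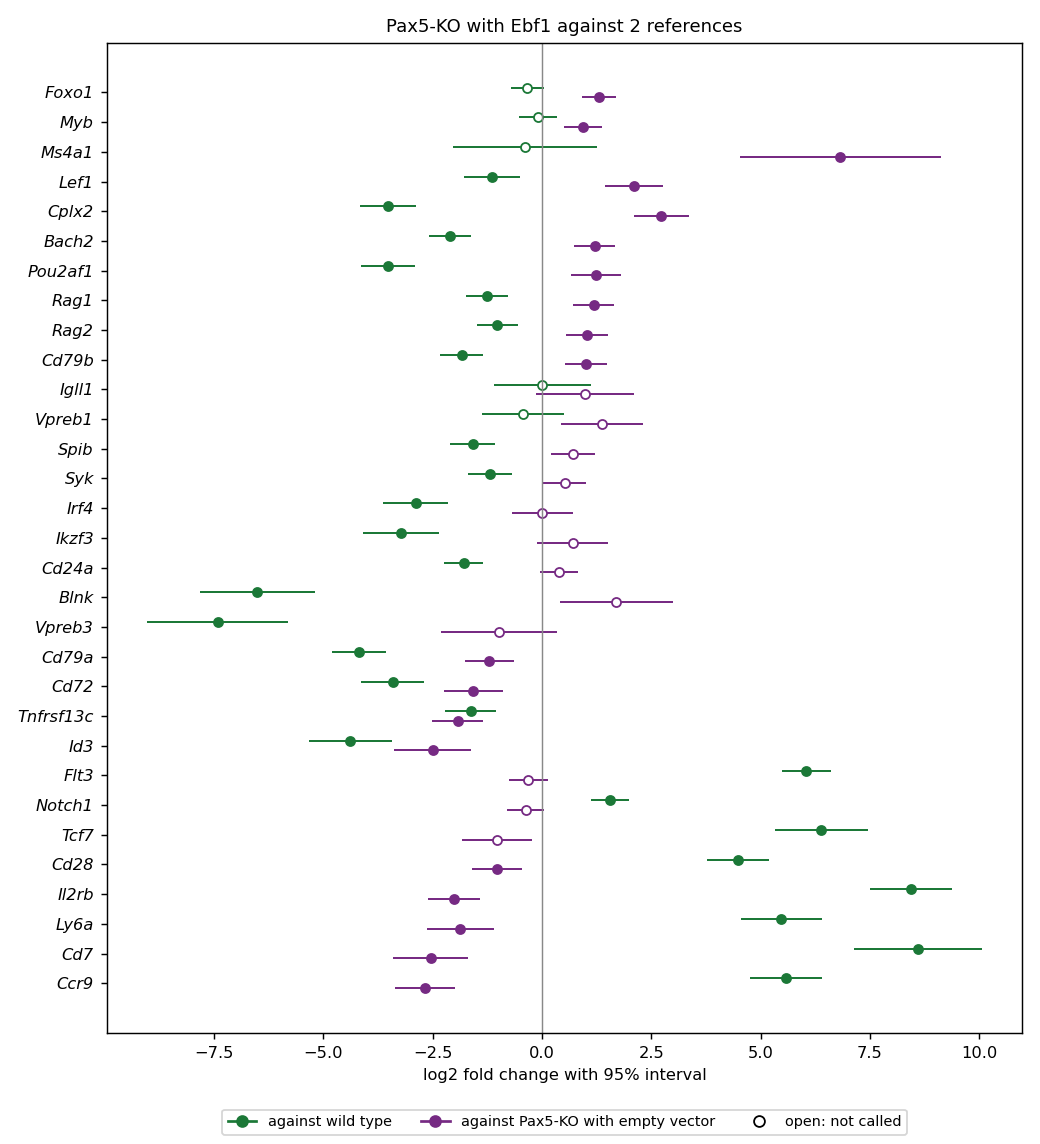
Log2 fold changes with 95% intervals of Pax5-KO with Ebf1 against wild type (green) and against Pax5-KO with the empty vector (purple), which share the Ebf1 libraries. Filled points passed the test and open points did not; Foxo1, Myb and Ms4a1 are filled only against the empty vector, Blnk and Vpreb3 only against wild type.

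Antigen presentation and homing genes held calls in both directions, beside 8.67% higher and 5.51% lower of all autosomal genes. Of 14 genes of MHC class II presentation 2 were higher and 2 lower than wild type, and of these 4 calls only that of H2-Ob, a modulator of peptide loading, held (97.3 and 119 CPM against 0 and 3.19 CPM, -5.94 ± 0.88, adjusted p = 0.000285). H2-DMa was called higher at 1.86 and 24.5 against 2.85 and 1.32 CPM, but without Ebf1 replicate 2 it was lower (-0.17, adjusted p = 0.886). Cd74, the invariant chain, fell from 259 and 470 CPM with the empty vector to 142 and 102 CPM with Ebf1 (adjusted p = 0.0188; 0.255 without empty-vector replicate 2) and did not pass the test against wild type (202 and 162 CPM). Of 17 homing and adhesion receptors 3 were higher and 4 lower than wild type, of which 2 higher and 2 lower held. Cxcr4, which holds B progenitors near the stroma, stood at 243 and 225 CPM in wild type and 108 and 120.5 CPM with Ebf1 (-1.03 ± 0.19, adjusted p = 0.0016), and S1pr1, an exit receptor, at 46.2 and 66.4 and 10.2 and 10.3 CPM (-2.46 ± 0.34, adjusted p = 0.000145). Itga6, the laminin receptor chain, was the member that Ebf1 raised, from 25.2 and 12.8 to 72.9 and 68.9 CPM (1.90 ± 0.31, adjusted p = 0.0034), beside 118 and 97 CPM in wild type.

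Growth and cell cycle lists held called genes in both directions, beside 8.67% higher and 5.51% lower of all autosomal genes. Of 12 genes of the Myc network 1 was higher and 2 were lower than wild type, and only the higher call held. Mxd1, an antagonist of MYC, was higher at 86.4 and 71.8 against 21.6 and 14 CPM (2.15 ± 0.38, adjusted p = 0.00144). Of 20 genes of interleukin-7, KIT and PI3K signalling 3 were higher and 3 lower (median 0.12), and only the 3 higher ones held: Flt3, Cish, a feedback inhibitor of STAT5 (103 and 117 CPM against 249 and 402 CPM), and Pik3r1, the regulatory PI3K subunit (181 and 202 against 434 and 501 CPM). Il7r, the receptor of the cytokine in the medium, did not differ from wild type beyond the spread (289.8 and 306 against 369 and 253 CPM, 95% interval -0.36 to 0.48).

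Of 26 genes of DNA replication and the G1/S step 3 were higher and 1 lower than wild type (median 0.29), and only 2 of the higher calls held. Cdk6, a G1 kinase, stood at 593 and 687 CPM in wild type, 1893 and 1267 CPM with the empty vector and 2435 and 2804 CPM with Ebf1 (2.03 ± 0.22 against wild type, adjusted p = 1.68e-05). Its partner Ccnd2 stood at 677 and 794, 1346 and 1296 and 1373 and 2077 CPM (1.23 ± 0.23, adjusted p = 0.00239). Ccnd3, the cyclin of the pre-B stage, went from 270.5 and 291 CPM with the empty vector to 495 and 676 CPM with Ebf1, beside 547 and 579 CPM in wild type (against the empty vector adjusted p = 0.0222; 0.115 and 0.151 without empty-vector replicate 1 and 2). E2f2, an activator of S-phase genes, rose from 90.1 and 134 to 238 and 354 CPM and lay at 626 and 573 CPM in wild type. Its rise (adjusted p = 0.00542) was lost without empty-vector replicate 1 (0.0565), and its deficit against wild type (adjusted p = 0.0104) without wild-type replicate 1 (0.062) or Ebf1 replicate 1 (0.0746).

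Of 17 brakes on the cell cycle 8 were lower than wild type and 2 higher (median -0.93), with 4 of the lower ones holding. Btg1, an antiproliferative gene, stood at 178 and 241 CPM in wild type and 34.9 and 18 CPM with Ebf1 (-2.99 ± 0.33, adjusted p = 2.12e-05), Ccng2 at 131 and 89.8 and 26.8 and 27.9 CPM, and Rb1, the retinoblastoma gene, at 205 and 223 and 74.1 and 90 CPM (-1.38 ± 0.20, adjusted p = 0.000223). Cdkn1a, the inhibitor p21, went the other way, at 109 and 84.7 and 193 and 373 CPM (1.55 ± 0.34, adjusted p = 0.00615; 0.0799 without wild-type replicate 2).

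Counts in other lists of growth and metabolism stand beside 8.67% higher and 5.51% lower of all autosomal genes. Of 20 mitosis genes 2 were lower, of 25 genes of ribosome biogenesis 4 were higher, and of 18 genes of glycolysis 3 were lower. Of 21 genes of nucleotide and one-carbon synthesis 1 was higher and 3 were lower, and of 6 gatekeepers of energy use 1 was higher and 1 lower. Each call in the mitosis, glycolysis and energy lists was lost without at least 1 library, and of the ribosome calls 1 held, that of Polr1a, an RNA polymerase I subunit (94 and 88.1 CPM in wild type against 201 and 204 CPM with Ebf1, adjusted p = 0.00161). Psat1, an enzyme of serine synthesis, was lower at 99.9 and 119 against 354 and 330.4 CPM (-1.64 ± 0.23, adjusted p = 0.000217), and Impdh1, of guanine nucleotide synthesis, higher at 216 and 251 against 73.4 and 70.2 CPM (1.70 ± 0.27, adjusted p = 0.000644). Among 15 genes of the BCL2 family 2 were higher and 1 lower. Bcl2l1, the survival factor BCL-XL, stood at 100 and 116 CPM in wild type, 21.1 and 42.3 CPM with the empty vector and 20.2 and 29.8 CPM with Ebf1 (-2.11 ± 0.33 against wild type, adjusted p = 0.000497). Bcl2 stood at 82.6 and 90.1, 339 and 268 and 160.1 and 125 CPM, and its fall against the empty vector (adjusted p = 0.00748) was lost without empty-vector replicate 1 (0.0577). Its excess over wild type (adjusted p = 0.0236), which with that of Bak1 made up the 2 higher calls, was lost without wild-type replicate 1 (0.136) or 2 (0.101) or Ebf1 replicate 1 (0.122), and that of Bak1 without wild-type replicate 1 (0.0864) or 2 (0.096).

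EBF1 binding sites of the series were mapped in another cell, the pre-B line 230-238, as 17230 peaks of 320 bases, so they show where EBF1 sat in that line and not in the Pax5-KO cells. A peak centre lay within 5000 bases of the start of 38.6% of all tested autosomal genes, 45.2% of those lower and 40.9% of those higher than wild type. The share was 56.0% among the 252 genes that rose over the empty vector and 40.5% among the 262 that fell. Among those that fell it was 26.3% within 1000 bases and 65.6% within 20000 bases, against 27.9% and 57.8% of all genes, and 26.7% against 18.4% with the peaks above the median score. Genes that rose with Ebf1 thus stood further from all genes, at this distance and within 1000 bases (40.5% against 27.9%), than genes that differed from wild type did. These shares are descriptions with no test.

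Among named genes, a peak near the start went with different outcomes. Peak centres lay 235 bases before the start of Igll1, 155 bases before Vpreb1 and 101 bases before Cd79b. Centres also lay 190 bases before the start of Cd79a and 230 bases after that of Alpl, both of which were far below wild type. For Vpreb3 the nearest centre was 1387 bases after the start and for Blnk 3379 bases after it. The nearest peak to Foxo1 was 14677 bases after its start. A PAX5-type core, GCATGAC or GCGTGAC on either strand, was found in the 250 bases before the start of 3.62% of the promoters of genes lower than wild type and 4.88% of all promoters matched.

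**Figure D5:**
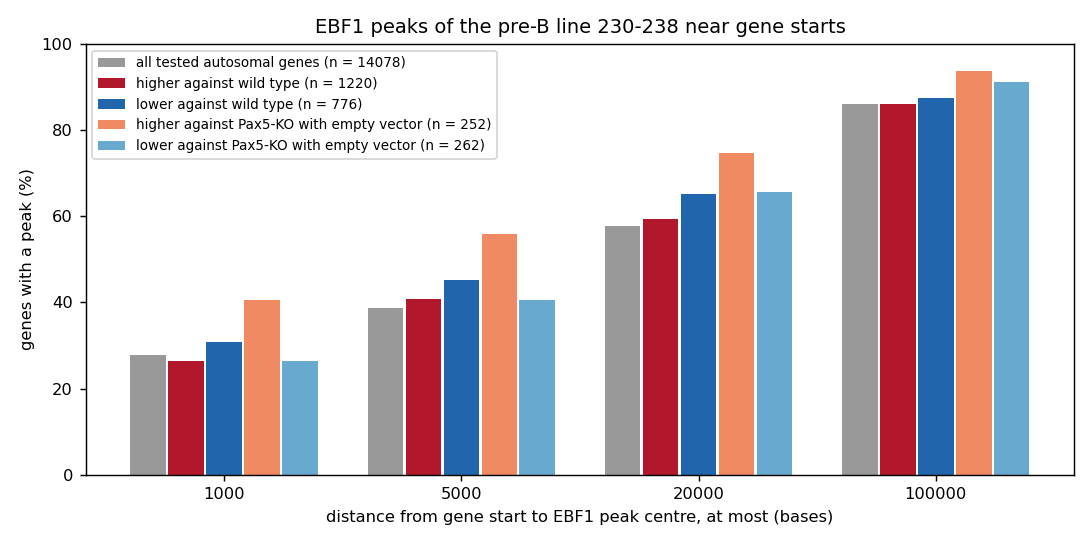
Percent of genes with an EBF1 peak centre of the pre-B line 230-238 within each distance of the gene start (bases, x axis), for all tested autosomal genes and for the genes called in each comparison. The bar of genes higher than with the empty vector is the tallest at each distance, 56.0% at 5000 bases against 38.6% for all genes.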

How the data were processed

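RNA was measured by sequencing in 14 libraries of 7 groups, 2 each. The deposited table holds raw exon read counts, made by the authors with HOMER's analyzeRepeats on mm10 with 1 row per gene, per the file header. The submitters' processing notes also name STAR 2.6.0b-1, with no role. The deposited EBF1 peak list of the pre-B line gives HOMER's score, normalized tag count (signal) and fold over control (a ratio) for each peak, set by the authors, per the file headers; the list is 1 for the replicates and its name refers to IDR, a check of peaks between replicates. In the Pax5-KO group with the empty vector, 1 column is numbered 2 and the other carries no number, so that one stands as replicate 1.

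Counts were fitted with edgeR 4.0.16 (R 4.3.3): TMM factors, its default low-count filter, a quasi-likelihood test over all 14 libraries and 7 groups without a replicate block, and Benjamini-Hochberg adjustment over all 14550 genes that passed the filter, with calls counted on autosomes. Standard errors are the log2 fold change over the root of F. A group at 0 was given a floor of 3 counts for bounds, and ratios on 1 to 3 counts have exact 95% intervals. DESeq2 1.42.0, other scalings, no filter, fewer libraries, thinning and a block were tried as alternatives. The test was run on simulated data first.

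The members and lists were chosen with earlier results of these data known. Named were Ebf1, Pax5 and Myc, the 10 genes furthest each way whose call held without each library and with at least 20 CPM, and list members: all in lists of 6 or fewer, otherwise up to 5 called each way and the 3 uncalled of highest level. Cd24a, Cd22, Cd72, Ms4a1, Tnfrsf13c, Bach2, Lef1, Tcf3, Spib, Notch1, Cd28, Cplx2, Lyz2, Syk, Ly6d, Tcf12, Lck, Hoxa9, Meis1, Itga6, Rb1, Rora, Rtp4, Usp18, Oasl2 and the members named at 0 or beside a count were chosen after their values were seen. Some genes that the rule takes are not reported here. Promoters are RefSeq's for GRCm38.p6: 10019 tested autosomal genes (71.2%) had 1 within 50 bases of the table's start. The series' other peak sets and libraries were not used here beyond the shared fit.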

Additional observations from a re-analysis of the deposited data

How the results depend on the processing

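Against wild type the higher and lower counts were 1220 and 776 as reported, 1761 and 1283 with DESeq2, 1594 and 1037 with no filter, 470 and 260 in a fit of the 2 groups alone (724 of its 730 calls shared with the reported ones), 1123 to 1233 and 785 to 875 with the other edgeR factors, and 644 to 1479 and 402 to 1441 with 1 library left out. Without wild-type replicate 1 they were 849 and 507, without wild-type replicate 2 they were 644 and 402, and without Ebf1 replicate 2 they were 1479 and 1441. Against the empty vector they were 252 and 262 as reported, 712 and 837 with DESeq2, 550 and 648 with no filter, 53 and 14 in a fit of those 2 groups alone, and 53 to 810 and 71 to 1357 with 1 library left out. Without empty-vector replicate 1 they were 130 and 181, without its replicate 2 they were 53 and 71, and without Ebf1 replicate 2 they were 810 and 1357. Where 1 library is left out, the lone sample of its group is assumed to vary like the other groups. Why the counts changed between these fits was not tested.

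With 1 library left out, the log2 fold change against wild type ran from -2.77 (without Ebf1 replicate 1) to 9.54 for Siglech, and from -0.17 (without Ebf1 replicate 2) to 3.55 for H2-DMa. Against the empty vector it ran from -0.81 to 0.52 for Irf4 and from -8.31 to 1.21 for Cr2, both lowest without Ebf1 replicate 2, and from -2.42 (without Ebf1 replicate 1) to 1.21 for Cd22. The cause was not tested.

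The groups share replicate numbers that the labels do not tie to a litter, batch or day; the column headers carry a different run tag for each number, with no meaning given. Replicate deviations correlated by -0.0586 between wild type and Pax5-KO with Ebf1 and by 0.0764 between the 2 Pax5-KO groups. With a replicate block the counts were 1398 higher and 999 lower against wild type, and 376 higher and 425 lower against the empty vector.

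The share of all tested genes with a peak was 38.6% at 5000 bases, 27.9% at 1000, 57.8% at 20000 and 86.0% at 100000 bases, and 18.4% with the peaks above the median score. For genes higher than wild type it was 40.9%, 26.5%, 59.4%, 86.1% and 21.8% in that order, and for genes lower 45.2%, 30.9%, 65.2%, 87.5% and 25.4%. For genes higher than with the empty vector it was 56.0%, 40.5%, 74.6%, 93.7% and 34.9%, and for genes lower 40.5%, 26.3%, 65.6%, 91.2% and 26.7%. Depth limits genes at 0: 3 counts are 0.18 CPM in the shallowest Ebf1 library.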
